A study of Mus musculus with 6 samples.

Results

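The cytosolic ribosomal protein genes were read on the array by 96 probes of 65 genes, out of 45281 probes and 19057 named genes in all. They were chosen by name: every gene whose symbol in the array annotation begins with Rpl or Rps and a number, and Rpsa, Rplp0, Rplp1 and Rplp2, without the Rps6k kinases and without pseudogenes. Of the 65 genes, 33 encode proteins of the large subunit and 23 encode proteins of the small subunit. A further 7 are paralogs (Rpl3l, Rpl7l1, Rpl22l1, Rpl36al, Rpl39l, Rps27l and Rps4l). The remaining 2, Rps19bp1 and Rps23rg1, match the rule by name but are not ribosomal proteins. No probe was used under the names of 13 large subunit genes, among them Rpl5, Rpl8, Rpl10 and Rpl11, or of 8 small subunit genes, and these were not analysed here.

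RNA came from 6 pools of whole mouse embryos of the strain C3H/HeH at E8.0 to E8.5, each pool holding 8 embryos matched for stage and giving 1 array. In 3 pools the embryos were homozygous for the iso allele of Zic2 (Zic2 iso/iso), and in the other 3 they were wildtype. The iso allele came out of a chemical mutagenesis screen and places a premature stop codon in Zic2, a zinc finger transcription factor, so that the fifth zinc finger is disrupted. The mutagenised males were C57Bl6/J, so sequence of that strain may remain around Zic2. Both genotypes were taken from crosses of heterozygous parents, with embryos of both sexes, and the mutation is present in every cell of the embryo. As whole embryos were pooled, the values are averages over all tissues, and fewer cells of a type cannot be told apart from less RNA per cell.

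Ribosomal proteins assemble with ribosomal RNA in the nucleolus into a large subunit, which forms the peptide bonds, and a small subunit, which decodes the mRNA. Each protein is needed in one copy per ribosome, apart from the P1 and P2 proteins of the stalk, and the mRNAs are among the most abundant of growing cells. Most of these mRNAs begin with a cytosine and an unbroken run of pyrimidines, the 5′ terminal oligopyrimidine (TOP) tract, through which mTOR signalling controls their translation. In mice, mutations in several of the genes give tail, skeletal or pigment phenotypes.

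The tract can be read at the annotated start of transcription. Promoter sequences of RefSeq (GRCm38.p6), which run from 250 bases before the start to 50 bases after it, were at hand for 46 of the 56 genes of both subunits. At 9 of these genes the annotated start is a C that opens a run of at least 5 pyrimidines (C or T), which is 19.6% of the genes, against 3.01% of all 27025 genes of the table (counting a gene if any of its starts has the run). The 9 windows are shown because they carry the feature that the family is known for. Each gives 15 bases before the start and 15 bases from the start on, 5′ to 3′ on the strand of the gene, with the pyrimidine run at the start in capitals.
Rpl14 (chr9:120571502-120571531, plus strand): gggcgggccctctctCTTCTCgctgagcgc
Rpl28 (chr7:4792950-4792979, plus strand): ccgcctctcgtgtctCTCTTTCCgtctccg
Rpl35 (chr2:39005117-39005146, minus strand): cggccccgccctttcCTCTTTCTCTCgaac
Rpl38 (chr11:114668565-114668594, plus strand): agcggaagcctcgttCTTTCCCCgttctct
Rplp2 (chr7:141447636-141447665, plus strand): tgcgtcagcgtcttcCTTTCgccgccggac
Rps6 (chr4:86857353-86857382, minus strand): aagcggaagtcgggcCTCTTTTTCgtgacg
Rps10 (chr17:27635230-27635259, minus strand): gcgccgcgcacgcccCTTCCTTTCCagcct
Rps15a (chr7:118116133-118116162, minus strand): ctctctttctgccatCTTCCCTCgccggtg
Rps21 (chr2:180257364-180257393, plus strand): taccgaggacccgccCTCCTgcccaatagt

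The runs were 5 bases long in Rplp2 and Rps21 and up to 11 bases in Rpl35. A start annotated a base or more away from the C would not be counted by this rule. The letters CTTTC, as in the runs of Rpl28, Rpl35, Rpl38, Rplp2 and Rps10, stood within 50 bases of the start on the strand of the gene in 25 of the 46 genes (54.3%), against 14.6% of all genes. On the opposite strand they stood there in 4 of the 46 (8.7%), against 13.8% of all genes. CCGGAAGT, the form of an ETS factor motif, was found on either strand of the whole 300 bases in 9 of the 46 (19.6%), against 4.31% of all genes. AAGATGGC, the form of a YY1 motif, was found in 3 of the 46 (6.52%), against 3.19%. The ETS form read on the opposite strand holds CTTCC, a part that can overlap a pyrimidine run. TATAAA stood within 50 bases of the start on the strand of the gene in 3 of the 46 genes (6.52%), against 4.05% of all genes. These counts describe sequence and say nothing of binding.

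Between pools, Pearson's r over all probes was 0.993 to 0.995 (a description, as probes are not replicates). The deposited intensities were linear and not normalised, with pool medians of 154 to 187 and highest values of 34897 to 43346. Unless a scale is named, levels below are log2 intensities after quantile normalisation, and a difference is the mean of the 3 Zic2 iso/iso pools minus the mean of the 3 wildtype pools. Background was set at 7.47, the 95th percentile of 1606 probes of genes that an embryo of this stage has little use for (receptors of the olfactory and vomeronasal organs, beta-defensins and keratin-associated proteins). The brighter of 2 Zic2 probes read 7.64, 7.57 and 8.01 in the Zic2 iso/iso pools, against 8.27, 8.06 and 8.00 in the wildtype pools. The other, just above background, read 7.56, 7.60 and 7.46 in the Zic2 iso/iso pools, against 7.28, 7.53 and 7.46 in the wildtype pools. The differences had opposite signs, -0.37 with the brighter probe and 0.12 with the other, and the groups overlapped with both. As iso is a point mutation, a probe for the transcript does not check the genotype.

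Probes for ribosomal protein genes were among the brightest on the array. Of the 56 genes of both subunits, 52 had a brightest probe above background (31 large subunit, 21 small subunit), and their median level was 14.57, at the 99.7th percentile of all probes. A level over 14 was found for 35 of the 52 genes, a level of 12 to 14 for 11, and a level between background and 12 for 6. Of the 258 probes on the array with a level over 14, 42 read genes chosen by the name rule, the paralogs Rpl36al and Rps27l among them. The brightest gene was Rps4x, the X-linked small subunit protein gene, with 14.91, 14.87 and 15.03 on the log2 scale in the Zic2 iso/iso pools, against 15.05, 15.11 and 14.93 in the wildtype pools. The groups overlapped, with the highest value in a wildtype pool.

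At the other end, 4 genes were read below background in the mean, namely Rpl14, Rpl17, Rps20 and Rps23, each by a single probe. Rpsa (level 7.48) and Rpl6 (7.48) lay at the edge of background, and Rps15a stood at 7.62. Rpl14 had 7.40, 7.39 and 7.38 on the log2 scale in the Zic2 iso/iso pools, against 7.33, 7.34 and 7.33 in the wildtype pools, which is below background in every pool. Rps15a and Rpl14 are also among the genes with a pyrimidine run at the start shown above, as are Rpl35 and Rplp2 with levels of 14.86 and 14.87. Probes differ in how well they bind their target, so levels of different probes give no order of transcript amounts.

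**Figure D1:**
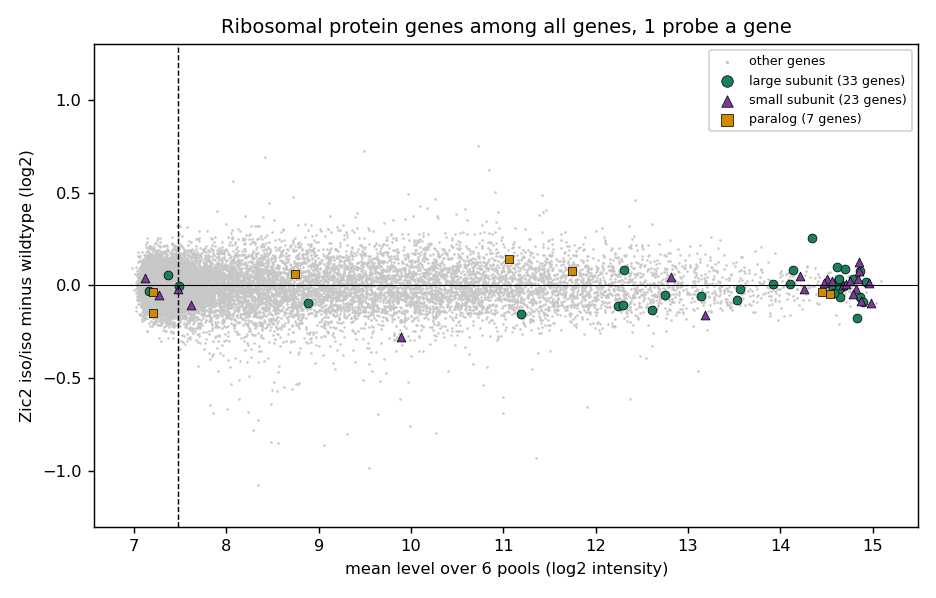
Each point is 1 gene, read by its brightest probe, with the mean level over the 6 pools on the x axis (log2 intensity) and the difference Zic2 iso/iso minus wildtype on the y axis (log2). The dashed line marks the background level of 7.47, and 2 other genes lie outside the y axis. Most ribosomal protein genes sit at the far right with differences close to 0, and Rpl32 (0.25) and Rps3a1 (-0.28) stand farthest from 0.

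The arrays were run to look for genes whose level depends on Zic2. None of the 65 genes or 96 probes passed an adjusted p of 0.05 (limma, Benjamini-Hochberg over all probes), and the lowest adjusted p among the 52 genes was 0.565. Over the whole array 20 probes passed, or 0.0442%. At an unadjusted p under 0.05 there were 2 of the 52 genes, Rpl32 and Rps3a1, against 11.1% of the 10438 genes above background, and 3 of the 96 probes.

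The differences were small throughout. They ran from -0.28 to 0.25 on the log2 scale over the 52 genes, or 0.825 to 1.19 times the wildtype level, and 42 of the 52 lay within 0.1 of 0. The median difference was -0.01 after quantile normalisation, but 0.052 when arrays were centred on their medians and 0.1004 without normalisation. Over all 10438 genes above background the medians were -0.01 after quantile normalisation, 0.023 with centring and 0.072 without normalisation. The split was 24 positive to 28 negative after quantile normalisation, 37 to 15 with centring and 43 to 9 without normalisation. Over all genes above background it was 4953 to 5485 after quantile normalisation, and it was not counted on the other scales. The standard errors ran from 0.06 to 0.16. The 95% intervals lay within ±0.5 for all 52 genes and within ±0.3 for 44, and they contained 0 for 50. The large subunit had a median difference of -0.01 (12 positive, 19 negative) and the small subunit of 0.01 (12 positive, 9 negative), both after quantile normalisation. That step gives every array the same distribution of values, and 42 of the 258 probes over 14 belong to the family, so a shift shared by the whole family would be removed in part.

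The pools of the genotypes overlapped for 46 of the 52 genes. All 3 Zic2 iso/iso pools lay above all 3 wildtype pools for 3 genes (Rpl32, Rpl3 and Rplp2), where 4.88% of all genes above background did so. They lay below for another 3 (Rps3a1, Rpl29 and Rpl30), where 7.15% of all genes did so. With 3 pools per genotype an exact two-sided permutation test of a single gene cannot go below 0.1.

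Beneath the medians single genes varied from pool to pool. The median deviation of the 52 genes from their own means lay between -0.01 and 0.01 in each pool, while the deviations of single genes reached -0.32 and 0.44. In 36 of the 52 genes the SD was larger among the Zic2 iso/iso pools than among the wildtype pools, with a median SD of 0.09 in Zic2 iso/iso and 0.06 in wildtype. The same count was not made over all genes, so whether this is particular to the family was not tested. The deviations of Zic2 iso/iso pools 1 and 3 ran in opposite directions across the 52 genes (r = -0.71, a description over genes that share the same 2 arrays, in which deviations from a common mean lean to negative values by construction).

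Rps16 is an example, with 14.81, 14.55 and 14.20 on the log2 scale in the Zic2 iso/iso pools, against 14.49, 14.50 and 14.46 in the wildtype pools. Its Zic2 iso/iso pools lay on both sides of the wildtype pools, which were close to each other. Rps26 had 14.24, 14.51 and 14.69 on the log2 scale in the Zic2 iso/iso pools, against 14.56, 14.40 and 14.44 in the wildtype pools, with the first mutant pool lowest and the third highest. Rpl9 had 14.67, 14.76 and 15.11 on the log2 scale in the Zic2 iso/iso pools, against 14.98, 14.91 and 14.92 in the wildtype pools, in the same arrangement as Rps26. Such genes have a difference near 0 and a wide interval, as in Rps16 with a difference of 0.04 (SE 0.12, 95% interval -0.21 to 0.29).

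The same pools differed in markers of other cells. The summed level of 6 primitive erythroid markers (linear scale) was 9859 in Zic2 iso/iso pool 1 and 1378 in pool 3, against 4436 to 6370 in the wildtype pools. Hbb-bh1 carried most of this swing, with 12.87 in Zic2 iso/iso pool 1 and 9.04 in pool 3 on the log2 scale. Among the mutant pools Hba-x and Hbb-y were likewise highest in pool 1, but Alas2 and Klf1 were highest in pool 2. For 5 heart markers the sum was 4243 to 8913 in the Zic2 iso/iso pools, against 8602 to 11073 in the wildtype pools. The lowest sum was again in Zic2 iso/iso pool 3. Of the markers above background, all 5 of erythroid cells and all 5 of heart had negative differences, none of which passed the adjusted threshold. For 6 visceral endoderm markers the sum was 23282 to 35618 in the Zic2 iso/iso pools and 21039 to 28923 in the wildtype pools. Of these markers 4 had positive and 2 negative differences. The largest was that of Apob, at 0.50 (SE 0.09, adjusted p = 0.147 by limma), with all mutant pools higher. Neural plate markers summed to 2823 to 3259 in Zic2 iso/iso and 2783 to 3034 in wildtype, with Sox1, Pax6, Hesx1 and Six3 below background. The node and notochord sums were 1142 to 1271 in Zic2 iso/iso and 1473 to 1672 in wildtype, and Shh carried most of this gap. The other genes of that list differed by -0.14 (Nog), -0.11 (Foxa2), -0.02 (Foxj1) and 0.0018 (Noto) on the log2 scale. Trophoblast and decidua sums were 2581 to 3219 in Zic2 iso/iso and 2721 to 3349 in wildtype. Of all these markers Shh alone passed the threshold, at -0.86 (adjusted p = 0.0075 by limma). The part of these cells in the spread of the ribosomal protein genes was not tested.

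**Figure D2:**
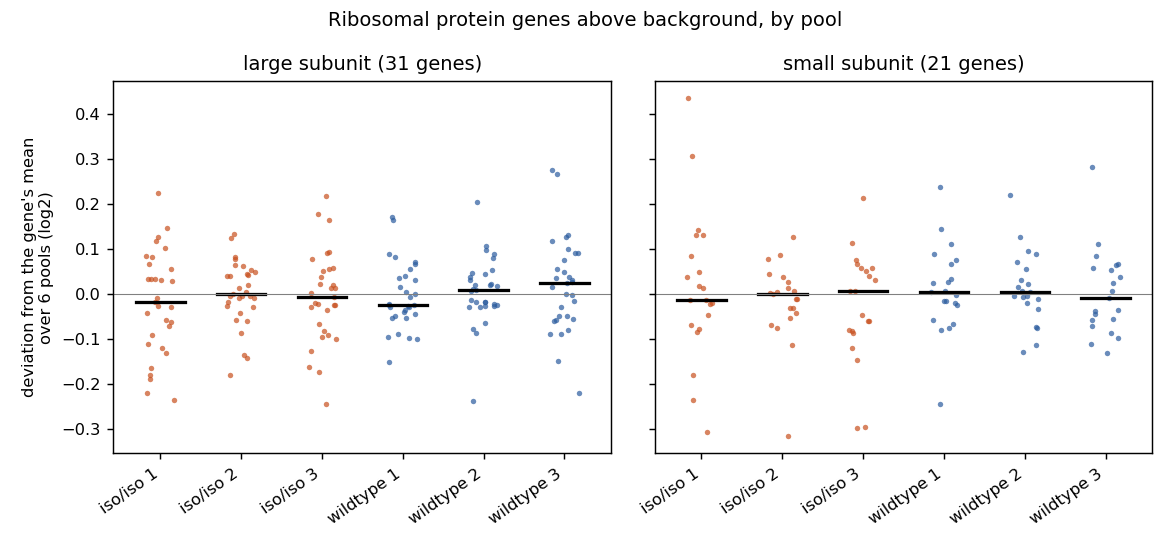
Each point is the deviation of 1 ribosomal protein gene from its own mean over the 6 pools (y axis, log2), with a column for each pool on the x axis, Zic2 iso/iso in orange and wildtype in blue, for the large subunit (31 genes) and the small subunit (21 genes). The black bars mark medians, all of which lie between -0.03 and 0.03, while single genes reach -0.32 and 0.44.

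The largest positive difference was that of Rpl32, a large subunit protein gene. It had 14.56, 14.40 and 14.43 on the log2 scale in the Zic2 iso/iso pools, against 14.24, 14.27 and 14.12 in the wildtype pools, so that every mutant pool exceeded every wildtype pool. The difference was 0.25 (SE 0.07, 95% interval 0.10 to 0.41), or 1.19 times the wildtype level, with an unadjusted p of 0.00375 and an adjusted p of 0.565 by limma. Rps2, whose protein sits where the mRNA enters the small subunit, had 14.999, 14.98 and 14.78 on the log2 scale in the Zic2 iso/iso pools, against 14.88, 14.73 and 14.77 in the wildtype pools. These groups overlapped, and the difference was 0.13 (SE 0.08, 95% interval -0.04 to 0.29), or 0.20 without Zic2 iso/iso pool 3. Rpl39, which lines the peptide exit tunnel and is X-linked, had 14.64, 14.74 and 14.59 on the log2 scale in the Zic2 iso/iso pools, against 14.60, 14.62 and 14.46 in the wildtype pools, again with overlap and with a difference of 0.10 (SE 0.07, 95% interval -0.06 to 0.25). The value for Rpl39 was 0.05 without wildtype pool 3 and 0.06 without Zic2 iso/iso pool 2.

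Rpl3, which reaches towards the peptidyl transferase centre, had 14.75, 14.69 and 14.78 on the log2 scale in the Zic2 iso/iso pools, against 14.68, 14.67 and 14.62 in the wildtype pools. The groups did not overlap, but the difference was only 0.09 (SE 0.06, 95% interval -0.05 to 0.22). Rpl7a had 12.34, 12.43 and 12.27 on the log2 scale in the Zic2 iso/iso pools, against 12.25, 12.29 and 12.25 in the wildtype pools, with overlap and a difference of 0.08 (SE 0.07, 95% interval -0.06 to 0.23), or 0.04 without Zic2 iso/iso pool 2. None of these 5 genes passed the adjusted threshold.

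The largest negative difference was that of Rps3a1, which encodes a protein of the small subunit platform. It had 9.88, 9.58 and 9.81 on the log2 scale in the Zic2 iso/iso pools, against 10.01, 9.92 and 10.18 in the wildtype pools, with all mutant values below all wildtype values. The difference was -0.28 (SE 0.09, 95% interval -0.47 to -0.08), or 0.825 times the wildtype level, with an unadjusted p of 0.00943 and an adjusted p of 0.683 by limma. Its single probe was dim for the family, with a level of 9.89. Rps25, a protein of the small subunit head used by viral internal ribosome entry sites, had 12.88, 13.18 and 13.26 on the log2 scale in the Zic2 iso/iso pools, against 13.33, 13.26 and 13.21 in the wildtype pools. The groups overlapped through the third mutant pool and the difference was -0.16 (SE 0.09, 95% interval -0.36 to 0.04). Without Zic2 iso/iso pool 1, the lowest of all, it was -0.05. Rpl4, a protein of the exit tunnel, had 12.48, 12.52 and 12.63 on the log2 scale in the Zic2 iso/iso pools, against 12.67, 12.63 and 12.73 in the wildtype pools, with a tie at 12.63 and a difference of -0.13 (SE 0.07, 95% interval -0.28 to 0.02).

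Rpl29 and Rpl30, the other large subunit genes whose mutant pools lay below the wildtype pools, had smaller differences. Rpl29 had 12.20, 12.29 and 12.23 on the log2 scale in the Zic2 iso/iso pools, against 12.30, 12.38 and 12.37 in the wildtype pools, a difference of -0.11 (SE 0.06, 95% interval -0.25 to 0.03). Its second probe, also above background at 8.41, had overlapping groups and a difference of -0.0033 (95% interval -0.18 to 0.17). Rpl30 had 13.10, 13.10 and 13.13 on the log2 scale in the Zic2 iso/iso pools, against 13.14, 13.23 and 13.14 in the wildtype pools, a difference of -0.06 (SE 0.06, 95% interval -0.20 to 0.08). The mutant and wildtype values of Rpl30 nearly touched.

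**Figure D3:**
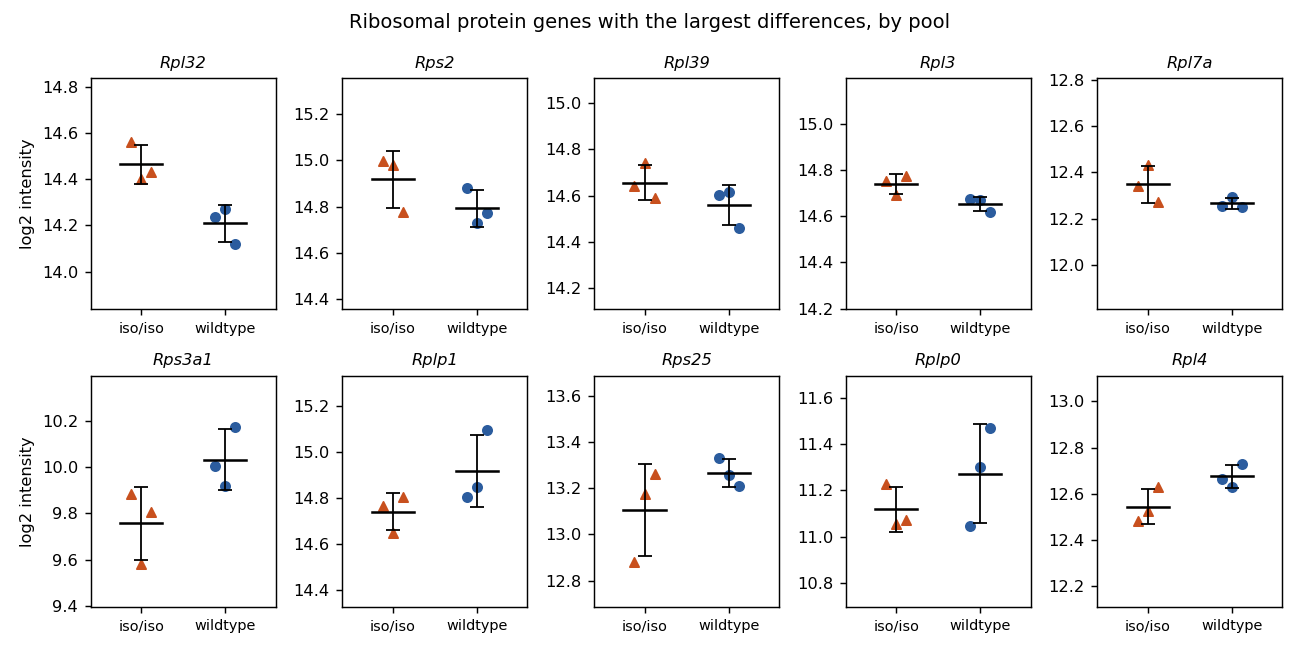
Each panel is 1 ribosomal protein gene, with Zic2 iso/iso pools (orange triangles) left of wildtype pools (blue circles) and the level (log2 intensity) on the y axis, whose height is 1 log2 unit in every panel. Bars give the mean and the SD of 3 pools. The upper row holds the 5 largest positive differences and the lower row the 5 largest negative ones, and the genotypes separate only in Rpl32, Rpl3 and Rps3a1.

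The stalk of the large subunit, which recruits the GTPases of translation, had differences of both signs. Rplp0, the base of the stalk, had 11.23, 11.05 and 11.07 on the log2 scale in the Zic2 iso/iso pools, against 11.04, 11.30 and 11.47 in the wildtype pools. Its wildtype pools were more spread than its mutant pools, and the difference was -0.15 (SE 0.10, 95% interval -0.37 to 0.06). It was -0.06 without wildtype pool 3 and -0.27 without wildtype pool 1. Rplp1 had 14.77, 14.65 and 14.80 on the log2 scale in the Zic2 iso/iso pools, against 14.80, 14.85 and 15.09 in the wildtype pools. The highest value was in the third wildtype pool, the groups met at the lowest wildtype value, and the difference was -0.18 (SE 0.08, 95% interval -0.36 to 0.01). It was -0.09 without that pool and -0.02 without normalisation between arrays. Rplp2, the partner of Rplp1 in the stalk dimers, had 14.93, 14.88 and 14.91 on the log2 scale in the Zic2 iso/iso pools, against 14.82, 14.85 and 14.81 in the wildtype pools. Here all mutant pools were higher, with a difference of 0.08 (SE 0.06, 95% interval -0.05 to 0.21). The adjusted p was 0.918 for Rplp0, 0.849 for Rplp1 and 0.94 for Rplp2.

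Among the genes known from mouse mutants with pattern or pigment defects, the differences were close to 0. Rpl38, mutated in Tail short mice, had 14.34, 14.58 and 14.75 on the log2 scale in the Zic2 iso/iso pools, against 14.55, 14.62 and 14.61 in the wildtype pools. The mutant pools lay on both sides of the wildtype pools, and the difference was -0.04 (SE 0.09, 95% interval -0.24 to 0.16). Rpl24, mutated in Belly spot and tail mice, had 14.03, 13.89 and 13.83 on the log2 scale in the Zic2 iso/iso pools, against 13.83, 13.89 and 14.02 in the wildtype pools, with a difference of 0.01 (SE 0.08, 95% interval -0.16 to 0.17). Rps19, mutated in mice with dark skin, had 14.66, 14.75 and 14.86 on the log2 scale in the Zic2 iso/iso pools, against 14.83, 14.74 and 14.65 in the wildtype pools, with a difference of 0.02 (SE 0.07, 95% interval -0.14 to 0.18). The groups overlapped in all of these.

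Rps7 had 14.91, 14.79 and 14.74 on the log2 scale in the Zic2 iso/iso pools, against 14.85, 14.71 and 14.93 in the wildtype pools, with a difference of -0.02 (SE 0.08, 95% interval -0.18 to 0.15). Rpl27a, mutated in Sooty foot ataxia mice, had 14.65, 14.70 and 14.68 on the log2 scale in the Zic2 iso/iso pools, against 14.71, 14.73 and 14.59 in the wildtype pools, with a difference of -0.0019 (SE 0.07, 95% interval -0.15 to 0.14). A second Rpl27a probe of nearly the same level (14.60) had all mutant pools above all wildtype pools. Its difference was 0.07 (95% interval -0.06 to 0.21, adjusted p = 0.948 by limma). The dimmer Rpl27a probes, at 11.82 and 7.53, had overlapping groups and differences of -0.0044 and -0.02. With the brightest probe of each gene, the sign of the difference turned for Rpl38, Rpl24, Rps19, Rps7 and Rpl27a when 1 pool was left out. Rps20, another gene of dark skin mutants, was below background in every pool. Of the mouse counterparts of 19 genes linked to Diamond-Blackfan anaemia in humans, 11 were measured, all above background. Of these 8 had positive and 3 negative differences, from -0.10 for Rps15a to 0.08 for Rps24, with a median of 0.01 and none past the threshold. Rpl5 and Rpl11, which join the 5S RNA before assembly and can bind MDM2, had no probe here.

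On the X chromosome, Rpl36a differed by -0.08 (95% interval -0.28 to 0.12), Rpl39 by 0.10 (95% interval -0.06 to 0.25) and Rps4x by -0.09 (95% interval -0.25 to 0.07). The 56 genes of both subunits lay on 18 chromosomes, with the largest number, 10, on chromosome 7.

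Of the 7 paralogs 5 were above background. Rps4l, a copy related to Rps4x, had 11.20, 11.13 and 11.06 on the log2 scale in the Zic2 iso/iso pools, against 10.94, 11.08 and 10.95 in the wildtype pools. The mutant pools were the higher ones apart from an overlap with the second wildtype pool, and the difference was 0.14 (SE 0.07, 95% interval -0.01 to 0.29) with an adjusted p of 0.858. Rpl22l1, the counterpart of Rpl22, had 8.81, 8.76 and 8.76 on the log2 scale in the Zic2 iso/iso pools, against 8.55, 8.55 and 9.04 in the wildtype pools. The third wildtype pool stood above all others, and the difference was 0.06 (SE 0.11, 95% interval -0.18 to 0.30). It was 0.23 without that pool and -0.02 without wildtype pool 1 or without wildtype pool 2, so its sign is not settled. Rpl22 itself had 12.13, 12.29 and 12.15 on the log2 scale in the Zic2 iso/iso pools, against 12.15, 12.45 and 12.30 in the wildtype pools, with a difference of -0.11 (SE 0.08, 95% interval -0.29 to 0.07).

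Rps27l, a paralog of Rps27 that p53 induces, had 14.62, 14.62 and 14.31 on the log2 scale in the Zic2 iso/iso pools, against 14.52, 14.42 and 14.75 in the wildtype pools, with a difference of -0.05 (SE 0.10, 95% interval -0.27 to 0.17) that turned to 0.05 without Zic2 iso/iso pool 3. Rpl7l1 had a difference of 0.08 (95% interval -0.07 to 0.23), or 0.03 without wildtype pool 1, and Rpl36al of -0.04 (95% interval -0.17 to 0.10), both with overlapping groups. Rpl3l, which replaces Rpl3 in striated muscle, was below background with levels of 7.07 to 7.30. Rpl39l, which is used in the male germ line, was below it with levels of 7.02 to 7.37. The 2 genes that are not ribosomal proteins were Rps19bp1 and Rps23rg1. Rps19bp1, which encodes a nucleolar protein that binds Rps19, had a difference of 0.12 (95% interval -0.04 to 0.29). Rps23rg1, a retroposed copy, had a difference of -0.07 (95% interval -0.22 to 0.09).

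Genes read by several probes allowed the probes to be compared with each other. There were 22 such genes with 53 probes, counting Rps23rg1, which is not a ribosomal protein gene. Of the ribosomal protein genes and paralogs among them, 17 had 2 or more probes above background. Among probes above background, levels for one gene were far apart, by a median of 3.30 on the log2 scale. The range reached 7.15 in Rpl27a, whose probes had mean levels of 14.68, 14.60, 11.82 and 7.53. The differences between genotypes had a median range of 0.10 among these probes of a gene and a largest range of 0.26. Differences were near 0 throughout (median size 0.05 over the 52 genes above background). Ranges of this size therefore do not show that probes agree on an effect of genotype. In 7 of the 17 genes the probes differed in sign, mostly around 0. In 7 of the 22 genes, Rps23rg1 again counted, 1 probe or more was above background while 8 other probes of the same genes were below it. Examples are Rplp2 (14.87 and 7.33) and Rpl37 (14.66, 7.29 and 7.24).

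Rpl30 was the only gene whose probes had opposite signs and lay at least 0.2 apart. Its dimmer probe had 9.98, 10.02 and 9.80 on the log2 scale in the Zic2 iso/iso pools, against 9.89, 9.94 and 9.38 in the wildtype pools. The third wildtype pool was far below the rest, and the difference was 0.20 (SE 0.12, 95% interval -0.07 to 0.47), against -0.06 with the brighter probe. The separation of the pools seen with the brighter probe was thus absent with the other. The second probe of Rps2, nearly as bright as the first, had a difference of -0.01 (SE 0.06, 95% interval -0.15 to 0.13).

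Rpl21 had 3 probes, all of low level (8.34 to 8.89) and all with negative differences. The middle one had 8.35, 8.42 and 8.47 on the log2 scale in the Zic2 iso/iso pools, against 8.58, 8.71 and 8.61 in the wildtype pools. All its mutant pools were lower, with a difference of -0.22 (SE 0.07, 95% interval -0.36 to -0.07) and an adjusted p of 0.657 by limma. The brightest gave -0.10 (95% interval -0.26 to 0.07) and the dimmest -0.07 (95% interval -0.21 to 0.07), both with overlapping groups. Rpl32, Rps3a1, Rpl3, Rplp1, Rps25 and Rpl39 were read by 1 probe each, so their values have no such check. Ribosomal protein genes have many processed copies in the genome, and whether a probe also read these was not tested.

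**Figure D4:**
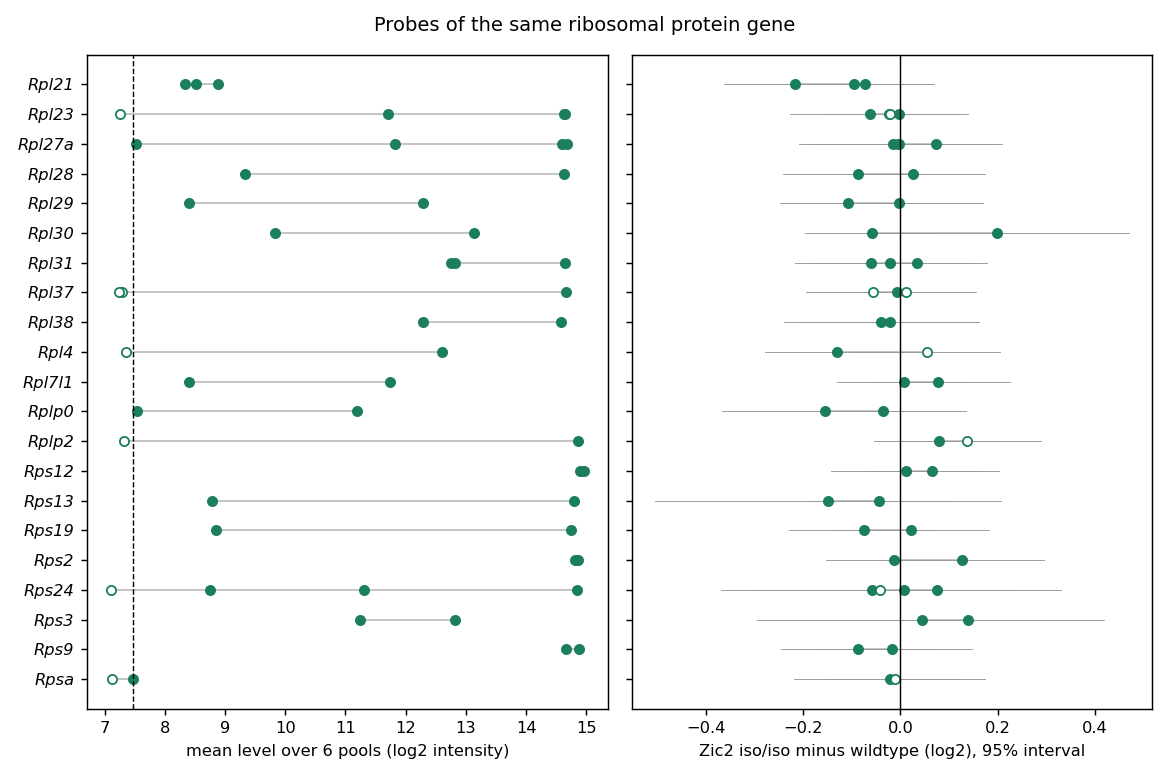
Each row is 1 ribosomal protein gene or paralog with 2 or more probes, and each circle is 1 probe, filled where its mean level is above background and open where it is below. The left panel gives the mean level over 6 pools (log2 intensity, dashed line at background) and the right panel the difference Zic2 iso/iso minus wildtype (log2) with its 95% interval. Probes of one gene that are above background are up to 7.15 apart in level. Their differences, which are near 0 for most genes, are at most 0.26 apart.

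Other genes of the same machinery also had no call. Of 76 mitochondrial ribosomal protein genes, which serve the ribosomes of the mitochondrion, 72 were above background, with a median difference of -0.03 (29 positive, 43 negative) and none past the threshold. The largest was Mrps15, with 8.16, 8.18 and 8.17 on the log2 scale in the Zic2 iso/iso pools, against 8.34, 8.57 and 8.66 in the wildtype pools. All mutant pools were lower and close together, with a difference of -0.35 (SE 0.08) and an adjusted p of 0.327 by limma. Of 16 other genes whose mRNAs carry a TOP tract, 15 were above background, with a median of -0.01 and none past the threshold. Among them Eif3h, a subunit of initiation factor eIF3, had 7.51, 7.49 and 7.54 on the log2 scale in the Zic2 iso/iso pools, against 7.95, 7.78 and 7.58 in the wildtype pools. Its level was near background, and the difference was -0.25 (SE 0.09).

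Of 14 targets of p53 measured, a pathway that can respond to faulty ribosome assembly, 12 were above background, with a median difference of -0.04 and none past the threshold. The largest was Pmaip1, which encodes NOXA, at -0.13 (SE 0.11).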

How the data were processed

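RNA of 6 pools was hybridised to Illumina Mouse WG6 v2 arrays. The authors deposited linear intensities of the probes. The variance stabilising normalisation named in the methods is not in them, so they were converted to log2 and quantile normalised here. No column was left out. Probes were fitted with limma 3.58.1 in R 4.3.3 (lmFit and eBayes, no covariates), with Benjamini-Hochberg adjustment over 45281 probes and a threshold of 0.05. Differences and 95% intervals come from this fit. The brightest probe stands for a gene. Of the probes 34885 carry 1 symbol, 18 several and 10378 none, by the platform annotation, which can be old.

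Genes were named by a rule: members past the threshold, the 5 largest differences in each direction, members of the stalk, mouse mutant and paralog lists, and genes whose probes disagree in sign by 0.2 or more. Of the other lists, apart from the lists of cell markers, the member with the largest change was named. Further genes, such as Rps16 and Rpl29, were picked with their values in view. The members and the 16 lists were chosen with earlier results of these data known. Labels and methods give the pools as separate samples, and 3 arrays per genotype limit the precision. The steps were tested on simulated data. Alternatives covered normalisation, background, variance prior, probe summary, the replicate block and leaving out each pool. The paper's other assays were not analysed here.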

Additional observations from a re-analysis of the deposited data

How the results depend on the processing

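No ribosomal protein gene was called under any of the 16 alternatives, and the lowest adjusted p of one was 0.305 (Rpl32, with the prior variance following intensity). Over the array the count of calls, 20 probes, became 4 without normalization between arrays, 11 with median centring, 31 with an intensity trend, 34 at a threshold of 0.10 and 12 genes with probes averaged by gene. Over 315 recomputed values of 21 genes named by the rule, 29 values of 8 genes had the other sign. These genes had reported differences of at most 0.06 in size, within 1 SE of 0, and 9 of the 29 arose without normalization or with median centring. Genes such as Rps16, Rps26, Rpl9, Rpl29, Rpl30 and Rpl21 were not recomputed one by one.

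The median difference of the ribosomal protein genes, -0.0056, became 0.1004 without normalization between arrays (0.072 for all genes above background), 0.052 with median centring (0.023 for all genes), 0.0059 after the variance stabilising normalisation and -0.016 with probes averaged by gene. Without normalization 43 of the 52 differences were positive, and with median centring 37, against 24 after quantile normalisation. The sign of the family's median therefore depends on the scaling, and signs over all genes were counted only after quantile normalisation. When each pool was left out in turn, it lay between -0.0197 and 0.0063.

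Without normalization 5 genes had all mutant pools above and 0 had all below, and with median centring 6 and 1, against 3 and 3. Leaving out 1 pool makes separation easier by construction, and gave 3 to 8 genes above and 3 to 10 below. Both highest counts were found without Zic2 iso/iso pool 3. Without wildtype pool 1 the counts were 5 and 7, without wildtype pool 2 there were 5 above, and without wildtype pool 3 there were 5 below. Shares over all genes were not computed under any of these alternatives. The counts therefore do not set the family apart from the rest of the array. The median range of differences among probes of a gene, 0.095, was 0.117 without normalization and with median centring, 0.105 with normexp and 0.128 after variance stabilisation.

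With the replicate number as a block (replicate block) 0 ribosomal protein genes were called, and 17 probes over the array. The deviations of same-numbered pools had r of -0.126, -0.020 and -0.122. Correlations between single arrays cannot settle whether the numbers mark pairs or batches. The main fit did not take the numbers as pairs. The intensities carry no saturation flag, and whether the brightest probes were near the ceiling of the scanner was not tested.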

Other observations

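The genes that build ribosomes, as opposed to those that encode their proteins, were read on the same quantile normalised scale. Of 44 measured genes of ribosome biogenesis 40 were above background, of which 27 were positive and 13 negative, with a median of 0.02 against -0.01 for all genes above background. None passed the adjusted threshold (limma). Of all 44 measured genes, with those below background included, 6 had an unadjusted p under 0.05 by limma, against 1457 of all 19057 named genes. Over the genes above background alone, that share was 11.1%. The largest was Emg1, a methyltransferase of the small subunit RNA, with 11.19, 10.81 and 10.80 on the log2 scale in the Zic2 iso/iso pools, against 10.83, 10.41 and 10.59 in the wildtype pools. These groups overlapped, and the difference was 0.32 (SE 0.12, adjusted p = 0.742 by limma).

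All mutant pools lay above all wildtype pools for 4 of the 40 genes, against 4.88% of all genes above background, and below them for 2, against 7.15%. The first share is higher than that of all genes and the second is lower, but the counts are small and neither was tested. The genes that follow are given as values only. Nmd3, the export adaptor of the large subunit, was higher in all mutant pools, with a difference of 0.24 (SE 0.07, adjusted p = 0.608 by limma). Ddx21, a helicase of the nucleolus, had 12.30, 12.28 and 12.32 on the log2 scale in the Zic2 iso/iso pools, against 12.18, 12.06 and 12.13 in the wildtype pools, a difference of 0.17 (SE 0.06). Nop58, a core protein of box C/D snoRNPs, had 13.98, 13.72 and 13.75 on the log2 scale in the Zic2 iso/iso pools, against 13.69, 13.49 and 13.72 in the wildtype pools, again without overlap and with a difference of 0.18 (SE 0.09). Ltv1, a factor of small subunit assembly, had 10.24, 10.32 and 10.31 on the log2 scale in the Zic2 iso/iso pools, against 10.32, 10.49 and 10.46 in the wildtype pools. Its highest mutant and lowest wildtype values were equal at this rounding, with a difference of -0.13 (SE 0.07). Emg1 is named by the rule for the list, and Nmd3, Ddx21, Nop58 and Ltv1 were chosen after their values were seen.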
